A study of Mus musculus with 9 samples.

Results

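The translation initiation factors described here are the genes whose symbol starts with Eif and a digit from 1 to 6, leaving out the Eif2ak kinases and the sex-linked pair Eif2s3x and Eif2s3y. They were found by symbol among the probe sets that carry 1 gene symbol, and each gene was read from its probe set with the highest mean over the 9 arrays. This gave 41 genes out of 18193 with a probe set of their own, represented by 115 probe sets. Another 6 probe sets, which carry the symbol of an initiation factor beside that of a second gene, were not used.

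RNA from sorted mouse cells was measured on Affymetrix arrays, 1 array per sample, in 3 control, 3 abnormal non-malignant and 3 NIC tumor samples. The series addresses how T cell acute lymphoblastic leukemia (T-ALL) arises and what excess NOTCH1, a receptor that drives T lineage commitment, does short of malignancy. The labels do not spell out NIC, and give no strain, genotype, transgene, age, treatment or sort gate for any group, nor any feature that all groups share. Whether each sample is its own animal is not said, so a p-value here measures only the spread between these samples, which may be technical. All values are log2 probe set signals as the authors deposited them, so a difference of 1 is a doubling, and the level of one probe set cannot be set against that of another.

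Initiation factors bring the small ribosomal subunit, the initiator tRNA and the capped messenger RNA together. eIF1 and eIF1A hold the small subunit open while it scans for a start codon, eIF2 carries the initiator tRNA as a GTP complex, and eIF2B recharges eIF2 with GTP. eIF3 is a large scaffold on the small subunit, and eIF4F, made of the cap-binding eIF4E, the helicase eIF4A and the scaffold eIF4G, prepares the messenger. eIF5 triggers GTP hydrolysis by eIF2, eIF5B joins the subunits, eIF6 keeps free large subunits from joining too early, and eIF5A helps ribosomes through difficult peptide bonds. Developing T cells raise protein synthesis when pre-TCR and NOTCH1 signals make them grow, and MYC is a known activator of initiation factor genes.

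The filter on dim probe sets, set at each array's 40th percentile, removed none of the 41 genes, which passed it on all 9 arrays. Array medians over all probe sets ran from 5.67 to 5.77. Over the probe sets with 1 symbol that passed the filter they spread more, from 6.99 on tumor array 3 to 7.24 on non-malignant array 2. With 3 arrays in a group, their number sets the precision. Abnormal non-malignant arrays 2 and 3 lay closest together, with an SD of 0.156 for their gene-by-gene differences, against 0.303 for the next closest pair, controls 1 and 3. NIC tumor array 1 lay nearer to the non-malignant arrays (0.462 to 0.469) than to the other tumors (0.625 and 0.79). The values of tumor array 3 were the least spread (SD 1.97, and 2.12 to 2.19 elsewhere). All 7 measured T lineage markers were above the filter on every array, with summed levels of 15.12 to 15.35 in controls, 15.17 to 15.40 in non-malignant samples and 14.41 to 14.98 in tumors. The 10 myeloid markers summed to 9.26 to 9.46, 10.31 to 10.51 and 9.67 to 11.18, the 6 measured B cell markers to 8.64 to 9.12, 8.04 to 8.61 and 8.14 to 8.92, the 4 measured erythroid markers to 8.15 to 8.27, 8.71 to 8.79 and 8.51 to 9.90, and the 6 thymic stroma markers to 9.48 to 9.78, 9.58 to 9.73 and 9.64 to 10.25. On every array 7, 3, 3 and 4 of these lay above the filter, and Hba-a1 and Col3a1 lay below it throughout. The part of such cells in the results below was not tested, and in bulk RNA fewer cells of a type and less RNA per cell cannot be told apart.

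Eif1b was the initiation factor that set the abnormal non-malignant samples apart, and its promoter is shown for that reason. Eif1b encodes a close relative of eIF1, the factor that guards start codon choice. The 250 bases before its annotated start, at chr9:120492356-120492605 on the plus strand of GRCm38.p6 (RefSeq), have a GC content of 80.4%. The capitals mark CACGTG, the E-box that MYC, MYCN and their partner MAX are known to bind, whose first base lies 24 bases before the start.

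Eif1b promoter: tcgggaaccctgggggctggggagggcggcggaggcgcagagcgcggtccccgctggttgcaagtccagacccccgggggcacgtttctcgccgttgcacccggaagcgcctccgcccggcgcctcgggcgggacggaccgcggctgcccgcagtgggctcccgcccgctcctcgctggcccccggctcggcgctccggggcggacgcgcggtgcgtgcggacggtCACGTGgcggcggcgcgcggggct

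The motif reads the same on both strands. RefSeq promoter windows of 300 bases, reaching 50 bases past the start, were at hand for 32 of the 41 genes. At least 1 window held CACGTG in 9 of these 32 genes (28.1%), and in 2187 of all 27025 genes with a window (8.09%). Of the 8 genes with a window that rose in tumors, 2 held it, Eif1b and Eif5a, as did 7 of the 24 others. The share was thus much the same in both, and a match is only a run of letters. To show how the sites sit, 4 further ones follow with 10 bases on either side, from Eif5a, Eif4e, Eif4a1 and Eif3f, with the motif in capitals. Eif4e and Eif5a have several annotated starts, and the distance is to the nearest one.

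Eif5a, minus strand, chr11:69921445-69921470, 74 bases before the start: ggggcggggtCACGTGtgtgcgtcat

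Eif4e, plus strand, chr3:138527194-138527219, 64 bases before the start: acacgtccgtCACGTGggcaggagcc

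Eif4a1, minus strand, chr11:69672597-69672622, 189 bases before the start: atcgcctccgCACGTGtaaaggtgct

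Eif3f, plus strand, chr7:108934337-108934362, 68 bases before the start: agatatgattCACGTGgtataaattt

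The series asks what excess NOTCH1 does without malignancy, but the labels give no genotype or transgene for any group. The first comparison was that of the abnormal non-malignant group with controls. Among the initiation factors it gave 1 rise, that of Eif1b, and no falls. Eif1b stood at 10.49, 10.04 and 10.48 on control arrays 1 to 3, at 12.10, 12.33 and 12.29 on the non-malignant arrays and at 11.26, 11.15 and 10.90 on the tumor arrays. The 3 groups did not overlap, with the non-malignant arrays highest and the tumors in between. The rise in non-malignant samples was 1.90 ± 0.17 (log2 fold change ± SE, 3.74-fold; limma adjusted p = 0.000262 over all 13296 genes tested), the 33rd smallest adjusted p and the 164th largest rise of all genes. Its call held in each of the 9 fits with 1 array left out, where the log2 fold change ran from 1.75 to 1.98.

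In this comparison 2.87% of all genes tested were called higher and 0.654% lower by limma, against 1 of 41 (2.44%) and 0 of 41 of the initiation factors. At an unadjusted p under 0.05, 5 initiation factors were higher (12.2%, against 9.36% of all genes) and 0 lower (against 3.92%). These were Eif1b and 4 that did not pass, namely Eif5, the eIF2 GTPase activator (0.46 ± 0.15, adjusted p = 0.164), Eif2b3, which encodes the gamma subunit of eIF2B (0.75 ± 0.30, adjusted p = 0.304), and the eIF3 subunits Eif3b (0.46 ± 0.19, adjusted p = 0.31) and Eif3c (0.35 ± 0.13, adjusted p = 0.271). All 3 non-malignant arrays lay above all 3 controls in 11 of the 41 genes (26.8%), and below them in 0. Over all genes these shares were 17% and 9.15%. The median log2 fold change of the 41 genes was 0.14, beside 0.01 over all genes tested, and 29 of the 41 values were above 0 (70.7%, against 51.3% of all genes). The lowest value was that of the helicase gene Eif4a2 (−0.38 ± 0.21, adjusted p = 0.526). The non-malignant rise in this family thus lay in 1 gene that passed, with small differences elsewhere that did not.

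**Figure D1:**
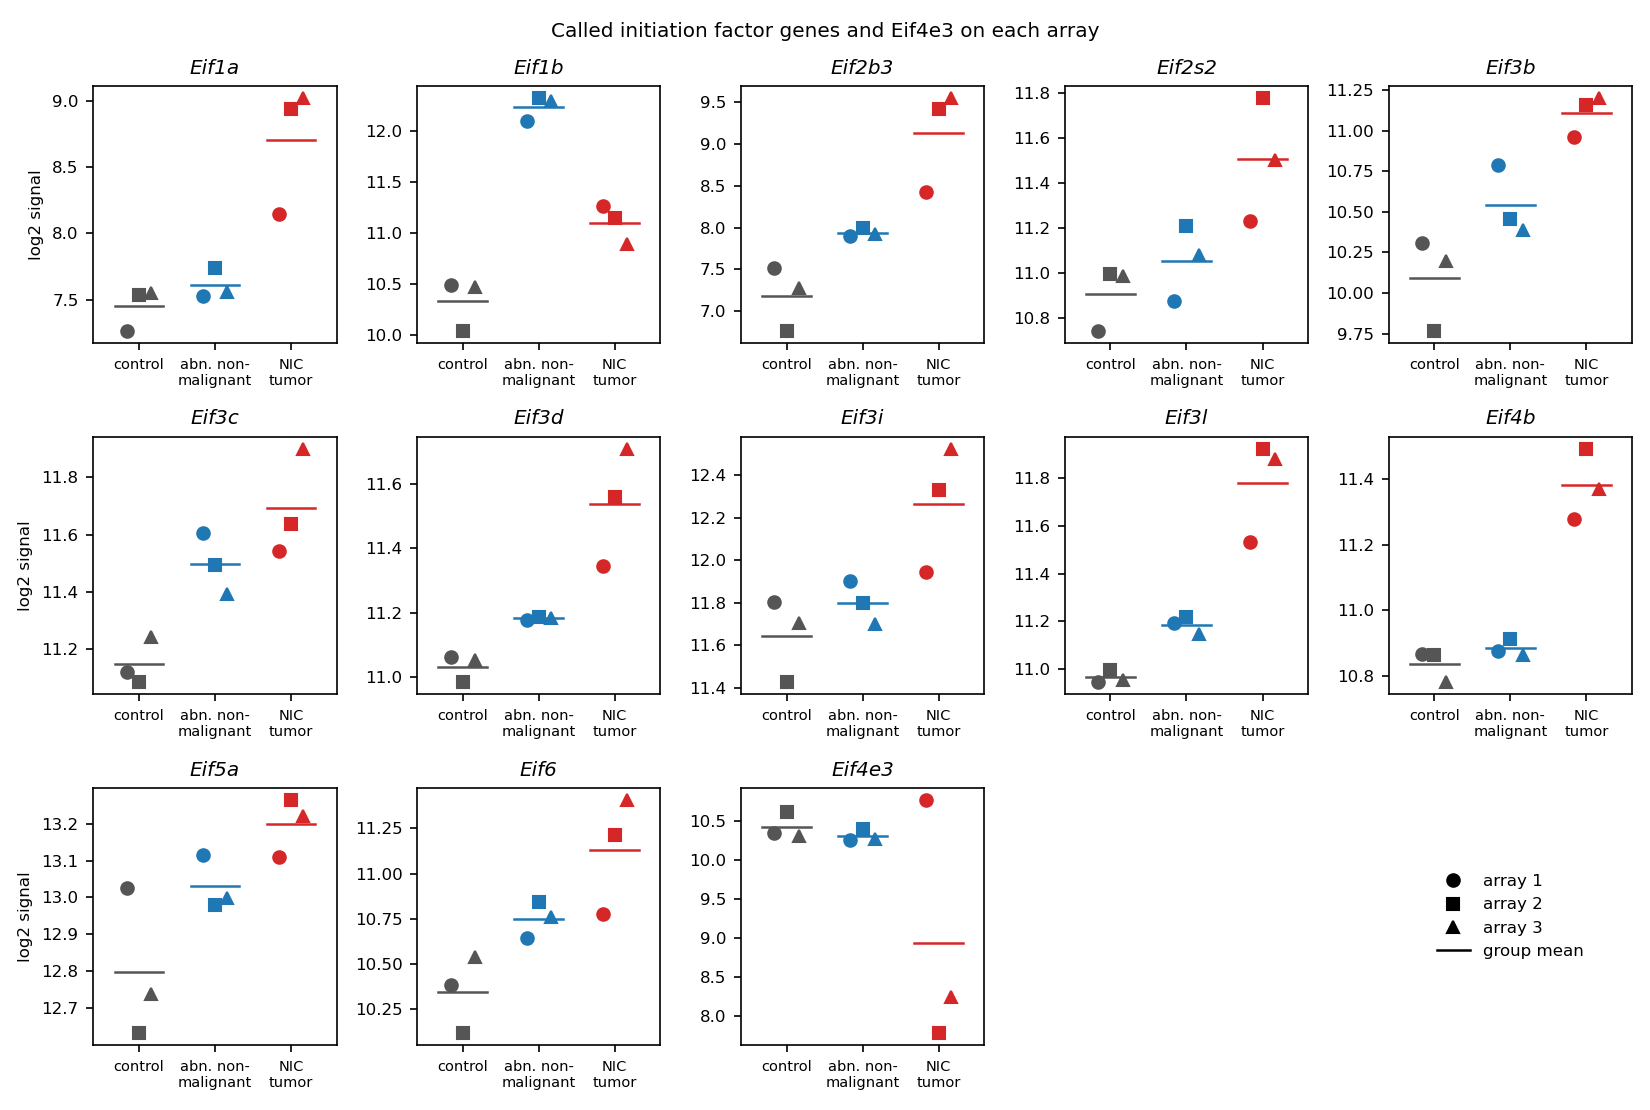
Log2 signal (vertical axes, which differ between panels) of the 12 initiation factor genes that passed in any comparison and of Eif4e3 on each array, with circles, squares and triangles for arrays 1, 2 and 3 and a line at each group mean (n = 3). Eif1b is highest in the 3 non-malignant samples, the other 11 called genes are highest on average in the tumors, and Eif4e3 is low on tumor arrays 2 and 3 only.

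The malignant state was read from the NIC tumors set against controls. Here 12 of the 41 initiation factors rose (29.3%), where 8.48% of all genes tested were called higher. Among the brighter genes left by a filter at the 60th percentile, which kept 39 of the 41, 11.4% were called higher. By limma 0 of 41 fell, where 7.19% of all genes were called lower, and 2 were lower at an unadjusted p under 0.05, Eif4a2 and Eif4e3 (4.88%, against 14.8% of all genes). At that level 16 were higher (39%, against 17.4%). The 12 came from 7 of the 10 roles: the scanning factors Eif1a and Eif1b, the eIF2 subunit Eif2s2, the eIF2B subunit Eif2b3, the eIF3 subunits Eif3b, Eif3c, Eif3d, Eif3i and Eif3l, the helicase cofactor Eif4b, Eif6 and Eif5a. The tumors lay above the controls without overlap in 19 of the 41 genes (46.3%, against 18.2% of all genes) and below them in 2 (4.88%, against 14.3%). The median log2 fold change was 0.28, beside 0.06 over all genes tested, and 35 of the 41 values were above 0 (85.4%, against 56.4% of all genes).

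The count of 12 depended on how the spread was estimated. It was 4 of 41 with only tumors and controls in the fit, where 3.76% of all genes were called higher, and 8 when the close non-malignant arrays 2 and 3 entered as 1 mean, where 6.24% were. With 1 array left out it was 7, 5 and 6 without control 1, 2 or 3, where 5.18%, 4.02% and 4.71% of all genes were called higher. It was 4 without tumor 2 (5.16% of all genes), 6 without tumor 3 (7.62%) and 14 without tumor 1 (16.6%). Without non-malignant array 1, 2 or 3 it was 13, 8 and 8 (7.89%, 6.21% and 6.2%). The 4 genes called in each of these 9 fits were Eif1a, Eif2b3, Eif3b and Eif3l, which are also the 4 called with only tumors and controls and at an adjusted p under 0.01.

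Among the scanning factors, Eif1a, an intronless relative of the X-linked eIF1A gene in the mouse, had values of 7.26, 7.54 and 7.56 in controls, 7.53, 7.74 and 7.56 in non-malignant samples and 8.15, 8.93 and 9.02 in tumors. All tumors lay above all other arrays, and tumor 1 was the lowest of them. Its log2 fold change against controls was 1.25 ± 0.24 (2.38-fold, adjusted p = 0.00944). A second Eif1a probe set, tested with every probe set on its own, gave 1.29 (adjusted p = 0.0221). The probe set used is of the type that can also bind related sequences, and Eif1ax, which encodes eIF1A itself, differed by 0.18 ± 0.14 (adjusted p = 0.413). Eif1b rose less in tumors than in the non-malignant samples, by 0.77 ± 0.17 (1.70-fold, adjusted p = 0.0162), and this call ended without control 2 or tumor 2 (log2 fold change 0.62, adjusted p = 0.0511, and 0.74, adjusted p = 0.0508). Eif1ad, which encodes a protein with an eIF1A-like domain, differed by 0.22 (adjusted p = 0.35).

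Of the eIF2B subunits, Eif2b3 rose and the other 4 did not pass. Eif2b3 was at 7.52, 6.76 and 7.28 in controls, 7.90, 8.0 and 7.92 in non-malignant samples and 8.42, 9.41 and 9.55 in tumors. The 3 groups did not overlap, and tumors 2 and 3 stood about 1 above tumor 1. Its log2 fold change of 1.94 ± 0.30 (3.85-fold, adjusted p = 0.00431) was the largest in the family and the 123rd largest rise of all genes, and it ran from 1.73 to 2.30 with 1 array left out. Eif2b5, which encodes the catalytic epsilon subunit, was at 9.18, 8.95 and 9.40 in controls and at 9.57, 10.28 and 9.89 in tumors, without overlap. At 0.74 ± 0.22 it just missed the threshold (adjusted p = 0.0517). A second Eif2b5 probe set, near the filter, gave −0.15 (adjusted p = 0.632), and the mean over the gene's probe sets gave 0.29. The gamma and epsilon subunits form the catalytic arm of eIF2B, and the alpha, beta and delta subunits, encoded by Eif2b1, Eif2b2 and Eif2b4, its regulatory core. Sorted in that way after their values were seen, the regulatory subunits had log2 fold changes of 0.51, 0.17 and 0.05. Of eIF2 itself, Eif2s2, the beta subunit, rose by 0.60 ± 0.17 (adjusted p = 0.0419), from 10.74, 10.99 and 10.99 in controls to 11.23, 11.78 and 11.50, with 10.87, 11.21 and 11.08 in non-malignant samples. Only 2 of its 9 fits with 1 array left out kept that call. None of its 5 other probe sets passed on its own (smallest adjusted p = 0.0524), and 1 of them pointed down (−0.64, adjusted p = 0.304). The mean over the probe sets of Eif2s2 did not pass either (0.35, adjusted p = 0.173). The alternative initiator tRNA carriers Eif2a and Eif2d had values of 0.28 and 0.42 that did not pass.

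The eIF3 subunits split, with 5 of 11 called higher and 6 not called. Eif3b, the scaffold subunit, was at 10.31, 9.76 and 10.20 in controls, 10.79, 10.45 and 10.39 in non-malignant samples and 10.96, 11.16 and 11.20 in tumors. Every tumor lay above every other array, and the log2 fold change was 1.02 ± 0.19 (adjusted p = 0.00844). Eif3l was at 10.95, 10.998 and 10.96 in controls, 11.19, 11.22 and 11.15 in non-malignant samples and 11.53, 11.92 and 11.88 in tumors. Its 3 groups did not overlap, and its rise was 0.81 ± 0.13 (adjusted p = 0.00534). A second Eif3l probe set, near the filter, gave −0.21 (adjusted p = 0.553), and the mean over the gene's probe sets did not pass (0.26). The other 3 called subunits rose less. Eif3i, a small subunit bound to eIF3b, was at 11.80, 11.42 and 11.70 in controls, 11.90, 11.80 and 11.70 in non-malignant samples and 11.95, 12.33 and 12.53 in tumors (0.62 ± 0.17, adjusted p = 0.0335). Eif3c, a core subunit, was at 11.12, 11.09 and 11.24, at 11.61, 11.49 and 11.39 and at 11.54, 11.64 and 11.90 (0.54 ± 0.13, adjusted p = 0.0247). Its probe set is of a type that can also bind related sequences. The other Eif3c probe sets gave 0.50 (adjusted p = 0.0293), 0.89 (adjusted p = 0.0177) and 0.29 (adjusted p = 0.359). Eif3d, the subunit that can itself bind the cap of some messengers, was at 11.06, 10.98 and 11.05, at 11.18, 11.19 and 11.18 and at 11.35, 11.56 and 11.71 (0.51 ± 0.13, adjusted p = 0.0269). In all 3 genes the tumors lay above the controls without overlap, and in Eif3c they overlapped the non-malignant samples. Each of these 3 lost its call in 5 to 7 of the 9 fits with 1 array left out, where the log2 fold changes of the fits without a call lay between 0.42 and 0.70. The other 6 subunits lay between −0.25 (Eif3a) and 0.26 (Eif3f).

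Placed in the structure after their values were seen, Eif3b, Eif3d and Eif3i are the measured subunits outside the octamer of PCI and MPN domain subunits, and these 3 rose (0.51 to 1.02). Eif3g, which also lies outside it, was not analysed here, nor were Eif1 and Eif2s1. Of the 8 octamer subunits 2 rose, Eif3c and Eif3l, and the median was 0.24. As this split was chosen from the values, it carries no test.

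**Figure D2:**
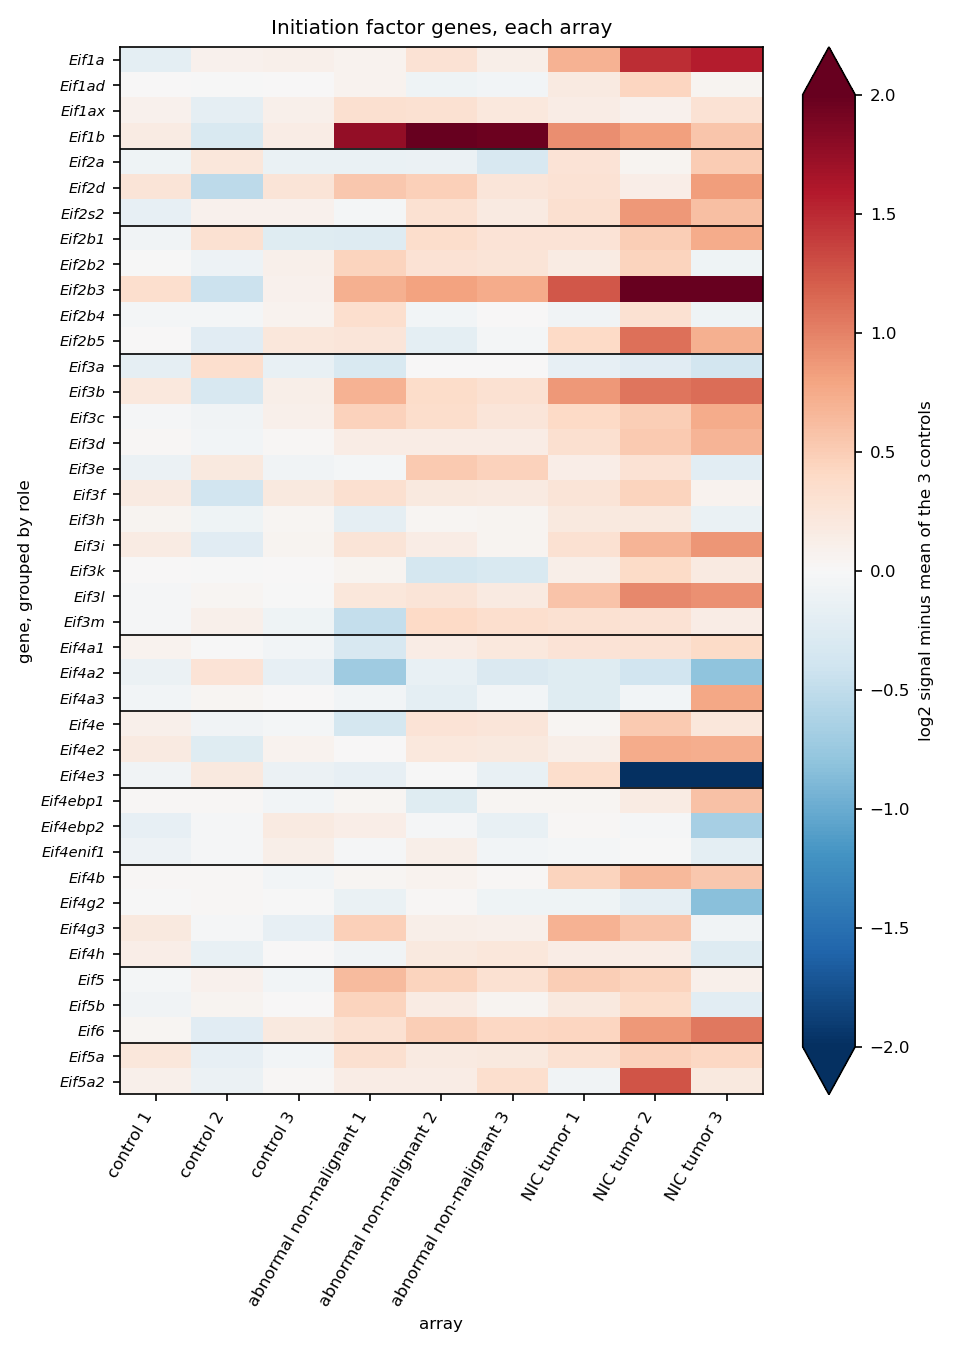
Each of the 41 initiation factor genes (rows, grouped by role between black lines) on each of the 9 arrays (columns), coloured by its log2 signal minus the mean of the 3 controls, from −2 (blue) to 2 (red). Eif1b is reddest in the non-malignant columns, Eif2b3 and Eif1a in tumors 2 and 3, Eif4e3 is blue in tumors 2 and 3 only, and the eIF3 block is mixed.

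Of the eIF4F genes and their cofactors, Eif4b alone passed at the gene level. Eif4b, whose protein stimulates the helicase, was at 10.87, 10.86 and 10.78 in controls, 10.88, 10.91 and 10.86 in non-malignant samples and 11.28, 11.49 and 11.37 in tumors. The first 2 groups overlapped and the tumors stood above both, with a rise of 0.54 ± 0.12 over controls (adjusted p = 0.0168). Its 2 other probe sets gave 0.57 and 0.64 without passing on their own. The helicase paralogues had values of opposite sign that did not pass: Eif4a1 was at 12.70, 12.63 and 12.58 in controls and 12.91, 12.92 and 13.02 in tumors (0.31 ± 0.14, adjusted p = 0.146), and Eif4a2 at 11.26, 11.65 and 11.20 in controls and 11.12, 10.99 and 10.57 in tumors (−0.48 ± 0.21, adjusted p = 0.152). In both the tumors lay beyond the controls without overlap. With every probe set tested on its own, a further Eif4a1 probe set did pass (0.43, adjusted p = 0.0332). Another Eif4a1 probe set gave 0.55 without passing (adjusted p = 0.374). Eif4a3, the helicase of the exon junction complex, was near the filter in this probe set (5.37 to 6.39 over the arrays). The scaffold Eif4g3, at 9.60, 9.38 and 9.24 in controls and 10.10, 9.96 and 9.33 in tumors (0.39, adjusted p = 0.267), the scaffold relative Eif4g2 (−0.37, adjusted p = 0.178) and the cofactor Eif4h (0.02, adjusted p = 0.954) did not pass. Eif4g1 was not analysed here.

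Among the cap-binding genes Eif4e3 differed most between the tumors. It was at 10.35, 10.61 and 10.31 in controls and at 10.27, 10.41 and 10.27 in non-malignant samples, and at 10.78, 7.78 and 8.24 on tumor arrays 1 to 3. Tumor 1 was thus above every other array, and tumors 2 and 3 were more than 2 below the lowest of them. A second Eif4e3 probe set had 10.07, 6.90 and 7.07 in tumors and 10.07 to 10.41 in controls. With all 3 tumors Eif4e3 differed from controls by −1.49 ± 0.62, which did not pass (adjusted p = 0.132). Without tumor 1 the value was −2.41 and passed (adjusted p = 0.000122). Eif4e, the main cap-binding protein, was at 10.51, 10.34 and 10.37 in controls and 10.44, 10.93 and 10.63 in tumors, which overlapped (0.26 ± 0.20, adjusted p = 0.4). Eif4e2, a cap-binding homologue linked to translational repression, had 0.53 ± 0.21 (adjusted p = 0.114). Its other probe sets, each tested on its own, gave 0.16, 0.23, 0.14 and −0.43, the last with an adjusted p of 0.0919.

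The genes of eIF4E-binding proteins did not pass in any comparison. The proteins of Eif4ebp1 and Eif4ebp2 keep eIF4E from eIF4G until mTOR phosphorylates them. Eif4ebp1 was at 6.94, 6.95 and 6.86 in controls, 6.95, 6.67 and 6.96 in non-malignant samples and 6.95, 7.09 and 7.51 in tumors (0.26, adjusted p = 0.324 in tumors). Eif4ebp2 was at 10.18, 10.32 and 10.53, at 10.48, 10.32 and 10.19 and at 10.36, 10.32 and 9.67 (−0.22, adjusted p = 0.479). Its groups overlapped, and 3 of its other probe sets had the opposite sign. Eif4enif1, which shuttles eIF4E into the nucleus, differed by −0.08 (adjusted p = 0.747).

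Of the late-acting factors, Eif6 and Eif5a rose in tumors. Eif6 was at 10.38, 10.12 and 10.54 in controls, 10.64, 10.84 and 10.76 in non-malignant samples and 10.77, 11.21 and 11.41 in tumors (0.78 ± 0.19, adjusted p = 0.023). Both abnormal groups lay above the controls and overlapped each other. The call of Eif6 ended without control 1 or 2 or tumor 2 or 3 (0.65 to 0.80, adjusted p = 0.0842 at most) and with the mean of its probe sets (0.52, adjusted p = 0.0552), and its second probe set gave 0.26 (adjusted p = 0.34). Eif5a was at 13.03, 12.63 and 12.74 in controls, 13.12, 12.98 and 13.00 in non-malignant samples and 13.11, 13.27 and 13.22 in tumors. Its rise was small (0.40 ± 0.11, adjusted p = 0.0413) and kept its call in 3 of the 9 fits with 1 array left out, while a second Eif5a probe set gave 0.92 (adjusted p = 0.026). Both Eif5a probe sets are of types that can also bind related sequences. The paralogue Eif5a2, dim at 5.91 to 6.37 in controls and non-malignant samples, was at 5.97, 7.28 and 6.23 in tumors, so that tumor 2 alone stood high (0.46 ± 0.29, adjusted p = 0.302). Eif5 (0.35, adjusted p = 0.138) and Eif5b (0.11, adjusted p = 0.718) did not pass.

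**Figure D3:**
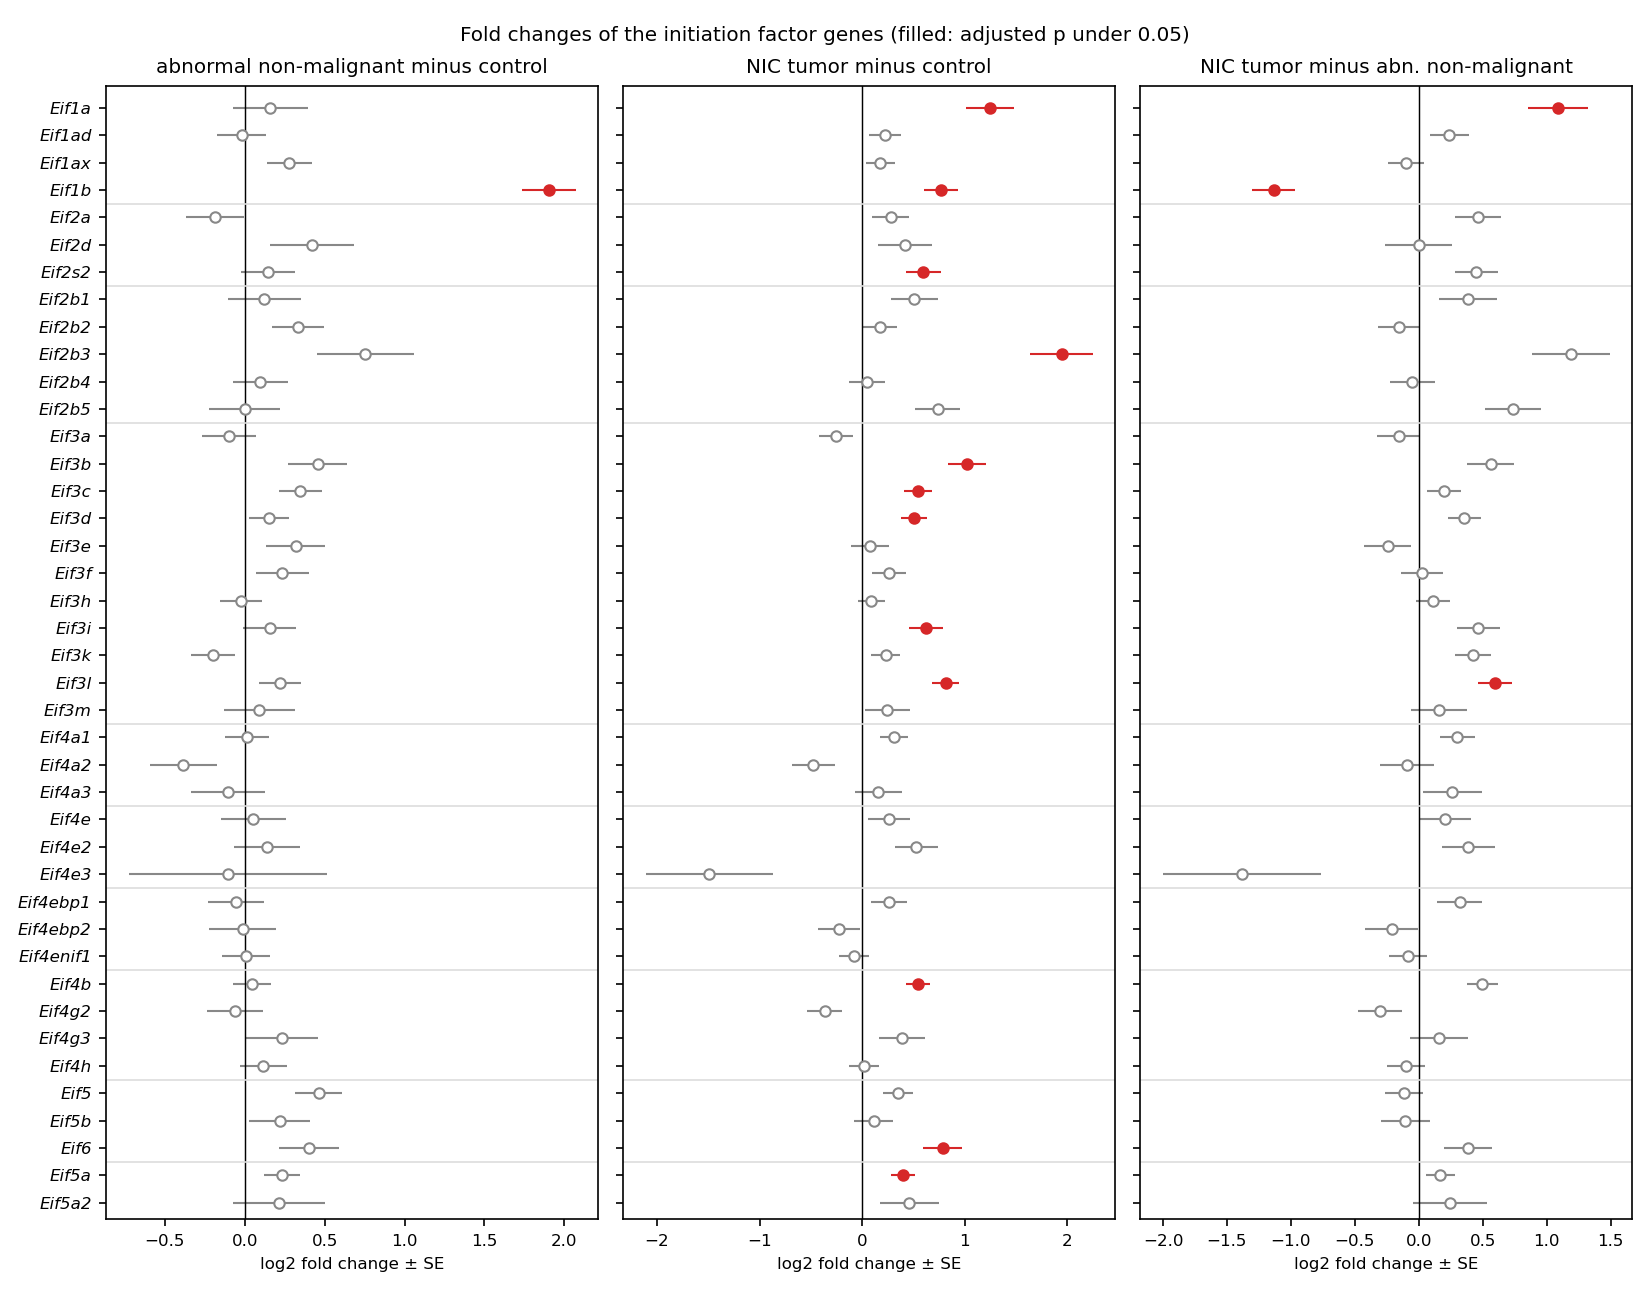
Log2 fold change ± SE from the limma fit of all 9 arrays (horizontal axes, which differ between panels) for each of the 41 genes, in the order of the roles, in the 3 comparisons. Filled red points have an adjusted p under 0.05: 1 gene in the left panel, 12 in the middle and 3 on the right, where Eif1b lies below 0.

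The comparison of NIC tumors with abnormal non-malignant samples asks which levels differ between both abnormal states. Eif1b was lower in tumors by 1.14 ± 0.17 on the log2 scale (2.20-fold, adjusted p = 0.00955), and Eif1a and Eif3l were higher, by 1.09 ± 0.24 (adjusted p = 0.0382) and 0.59 ± 0.13 (adjusted p = 0.0429). These are 2 of 41 higher (4.88%) and 1 of 41 lower (2.44%), where 1.53% and 2.7% of all genes tested were called. At an unadjusted p under 0.05, 11 were higher (26.8%, against 11.6% of all genes) and 1 lower (against 14.4%). Those higher included Eif4b (0.50 ± 0.12, adjusted p = 0.0502), Eif2b3 (1.19 ± 0.30, adjusted p = 0.0588), Eif2b5 (0.74, adjusted p = 0.089) and Eif3b (0.56, adjusted p = 0.107). The tumors lay above the non-malignant samples without overlap in 12 genes (29.3%, against 12.3% of all genes) and below them in Eif1b alone (2.44%, against 14.8%). The median log2 fold change was 0.20, beside 0.03 over all genes, and 26 of 41 values were above 0 (63.4%, against 53.5%). All 3 calls ended when non-malignant arrays 2 and 3 entered as 1 mean (adjusted p = 0.0722 for Eif1b), and that of Eif1b also without either of these arrays (adjusted p = 0.0713 at most). Those of Eif1a and Eif3l held in 1 of the 9 fits with 1 array left out, the one without tumor 1, where they were 1.37 and 0.72, and ended in the other 8. Without tumor 1, 12 initiation factors were called higher and 2 lower, while 11.9% of all genes were called higher and 13.8% lower.

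The 3 tumors were not alike in these genes. In 11 of the 12 genes that rose against controls, tumor 1 was the lowest tumor (91.7%), the exception being Eif1b, and over all 1127 genes called higher tumor 1 was lowest in 706 (62.6%). Tumor 1 still lay above all 3 controls in all 12. The median of these 12 genes, relative to the control mean, was 0.43 on tumor 1, 0.84 on tumor 2 and 0.82 on tumor 3, and 0.19 to 0.29 on the non-malignant arrays. Over all 41 genes the median was 0.27, 0.44 and 0.30 in tumors and 0.08 to 0.17 in non-malignant samples, and over all genes tested it stayed between −0.02 and 0.09 on every array. Non-malignant means lay between those of controls and tumors in 11 of the 12, again except Eif1b, and in 929 of the 1127 genes. Both comparisons use the same controls. Tumor 3, with 27 genes above all controls and 11 below, was the array with most genes below the controls.

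**Figure D4:**
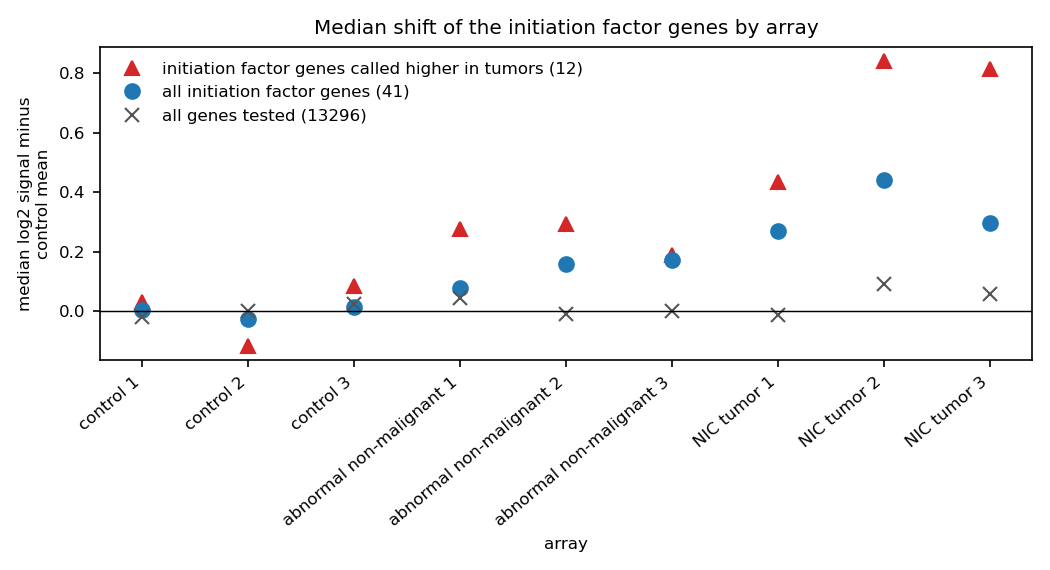
Median log2 signal minus the control mean (vertical axis) on each of the 9 arrays, for the 12 initiation factor genes called higher in tumors (red triangles), all 41 (blue circles) and all 13296 genes tested (grey crosses). The 12 genes were chosen on these arrays, so their height in tumors is a description; tumor 1 (0.43) lies between the non-malignant arrays (0.19 to 0.29) and tumors 2 and 3 (0.84 and 0.82).

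MYC and the NOTCH1 pathway genes gave the following values on the same arrays. Myc was at 7.43, 6.90 and 7.12 in controls, 8.34, 8.27 and 8.10 in non-malignant samples and 8.81, 9.72 and 9.93 in tumors, so that tumor 1 was again the lowest tumor. Mycn was at 7.90 to 9.32 in controls, 13.27 to 13.73 in non-malignant samples and 12.68 to 13.76 in tumors. The Notch target Dtx1 was at 7.96 to 8.08, 13.14 to 13.28 and 12.29 to 13.06. Notch1 was at 9.81 to 10.34 in controls, 12.87 to 12.97 in non-malignant samples and 12.92, 9.0 and 10.81 in tumors. Mycn, Dtx1 and Notch1 had a higher mean in non-malignant samples than in tumors, by 0.38, 0.42 and 2.00 on the log2 scale, and none of these 3 differences passed (adjusted p = 0.533, 0.209 and 0.136). Myc was higher in tumors than in non-malignant samples (1.25, adjusted p = 0.0433). Whether these genes account for any of the values was not tested.

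The rest of the translation pathway was described through 4 lists. Their counts in tumors against controls stand beside 8.48% of all genes called higher and 7.19% lower, and beside 17.4% higher and 14.8% lower at an unadjusted p under 0.05. Of 9 elongation and termination genes tested, 5 rose in tumors against controls and none fell by limma (5 in either direction at an unadjusted p under 0.05), with a median of 0.43. The smallest adjusted p were those of Eef1e1, an accessory protein of tRNA synthetases related to elongation factor subunits (1.17, adjusted p = 0.0172), Eef1d, a guanine exchange subunit of eEF1 (0.77, adjusted p = 0.0201), and the ribosome recycling factor Abce1 (0.91, adjusted p = 0.0202). Of 14 accessory and eIF5A-modifying genes 5 rose and none fell (8 in either direction at an unadjusted p under 0.05, median 0.49), led by the poly(A)-binding protein Pabpc4 (1.70, adjusted p = 0.00298), the regulator of ribosomal protein messengers Larp1 (1.12, adjusted p = 0.00788) and Denr (0.75, adjusted p = 0.0154). Larp1 was at 9.71, 9.24 and 9.80 in controls, 10.63, 10.50 and 10.67 in non-malignant samples and 10.43 to 11 in tumors. It was the 1 gene of these lists that also rose in non-malignant samples (1.02, adjusted p = 0.0228).

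No gene of the signalling lists above initiation was called, and lists this short say little beside the shares of all genes given for the other lists. Of 9 genes of the eIF2alpha kinases and stress response, 0 were called by limma in any comparison (at an unadjusted p under 0.05, 0 in non-malignant samples, 2 in tumors, and 1 where the tumors are set against the non-malignant samples). The smallest adjusted p was that of Asns in tumors, at 5.54, 7.23 and 7.37 against 5.40 to 5.72 in controls (1.19, adjusted p = 0.0781). Of 12 genes of mTOR signalling to eIF4F, 0 were called, and at an unadjusted p under 0.05 the same 3 comparisons had 0, 2 and 2. Mknk1, an eIF4E kinase, had −0.93 in tumors (adjusted p = 0.0762), with 8.65, 8.39 and 7.26 against 8.86 to 9.11 in controls. These are messenger levels, and neither phosphorylation nor translation was measured.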

How the data were processed

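Per the labels' protocols, RNA was extracted with TRIZOL and RNeasy columns, amplified to biotin-labelled cRNA and hybridized to 1 array per sample. The authors deposited log2 values of 45101 probe sets; background correction, normalization and summarization are not given in the sources used here, and the log base was read from the values (2.68 to 14.57). Groups came from sample titles. Of the probe sets, 34945 have 1 gene symbol in the platform annotation, 932 several and 9160 none, beside 64 Affymetrix controls; symbols were updated by Entrez ID to RefSeq (GRCm38.p6).

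Each gene was its probe set with the highest mean. Genes above the array's 40th percentile on at least 3 arrays were tested (13296) with limma 3.58.1 in R 4.3.3: 1 mean per group, all 9 arrays, trended moderated variance, two-sided, Benjamini-Hochberg over all genes, called at an adjusted p under 0.05. With 3 arrays a side, exact permutation reaches no p under 0.1, so none was run. On simulated data with each group's own spread, the fit made more false calls in comparisons with tumors than its threshold allows. Each spread was itself estimated from 3 arrays, so the size of this excess in the real data cannot be read from it.

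Members, roles, lists, tests and alternatives were chosen with earlier results of these data known. Values per array were given for called genes and fixed paralogue pairs, for lists the 3 smallest adjusted p. The second probe sets and Larp1, Asns, Mknk1, Eif2ak3 and Ptcra by array were chosen after their values were seen. Alternatives changed scaling, filter, probe set, variance model, arrays and threshold; testing each further probe set was added after seeing the data. Python 3.11.15 with pandas 2.3.3 made the tables.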

Additional observations from a re-analysis of the deposited data

How the results depend on the processing

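The 1 call in non-malignant samples, the 12 in tumors against controls and the 3 between tumors and non-malignant samples kept their direction under every alternative of scaling, filter, probe set summary, variance model, arrays and threshold. In non-malignant samples the count higher was 1 throughout, except 6 with array weights, which also gave 1 lower. With array weights 11.5% of all genes were called higher there and 6.72% lower. In the other fits the share of all genes called higher ran from 1.32% without non-malignant array 2 to 6.18% with only the 2 groups compared. The median of 0.14 there was 0.0973 after quantile normalization, 0.0908 after median scaling, 0.070 with the mean of probe sets and 0.0789 to 0.19 with 1 array left out. In tumors against controls the count of 12 higher was 21 with array weights (1 lower), 4 with only the 2 groups compared, 4 at an adjusted p under 0.01 and 4 to 14 with 1 array left out, with 0 to 1 lower; the median of 0.28 was 0.19 with the mean of probe sets. Between tumors and non-malignant samples the count of 2 higher was 4 after median scaling (median 0.27) and with the 60th percentile filter, 1 without a filter, 0 with the mean of probe sets, with only the 2 groups, with arrays 2 and 3 averaged (0 lower) and at an adjusted p under 0.01, 16 with array weights (2 lower), and 0 to 12 higher and 0 to 2 lower with 1 array left out. Over all genes, the 1127 called higher in tumors against controls were 2892 with array weights, 500 with only the 2 groups and 532 to 2200 with 1 array left out. Between tumors and non-malignant samples 1.53% of all genes were called higher, and 24.1% with array weights (18.8% lower). The share was 2.07% after median scaling, 2.51% with the 60th percentile filter, 0.709% without a filter and 1.46% with the mean of probe sets. It was 0.165% with only the 2 groups, 0.0832% with arrays 2 and 3 averaged and 0.0453% to 11.9% with 1 array left out. The shares of all genes at an adjusted p under 0.01 are not given here.

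The labels do not say whether the replicate numbers pair the samples. Arrays of the same number correlated between −0.05 and 0.22 in their deviations from the group means. Arrays of different numbers were not set beside them, so this does not decide whether samples are paired. With the replicate block 10 genes were higher in tumors against controls and 1 against non-malignant samples, and Eif3i and Eif5a lost their calls. In that fit 7.27% and 0.542% of all genes were called higher in these 2 comparisons. Some values of at most 0.28 in size that did not pass changed sign in tumors against controls. With the mean of probe sets these were Eif1ax (−0.0018), Eif2a (−0.19), Eif3a (0.12), Eif3h (−0.11), Eif4ebp1 (−0.061) and Eif4ebp2 (0.028). Eif4enif1 became 0.0083 after quantile normalization and Eif4a3 −0.0075 with array weights. With 1 array left out Eif2b4 ran from −0.0796 to 0.12, Eif3e from −0.035 to 0.22, Eif4a3 from −0.15 to 0.36, Eif4h from −0.058 to 0.15 and Eif5b from −0.012 to 0.27. In tumors against controls, 43 of 62 further probe sets of all members had the sign of the probe set used. Of those of called genes 13 of 15 did, and 4 of 15 passed on their own. The exceptions were 1 probe set of Eif2s2 (−0.64) and 1 of Eif3l (−0.21, and −0.32 against non-malignant samples). The cause was not tested. Probe sets near the filter, as those of Eif4a3 and Eif5a2, have little signal over background.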

Other observations

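The 2 tumors with low Eif4e3 also differed from tumor 1 in Notch1 and in the T lineage marker Ptcra. These genes, and Asns and Eif2ak3 below, were chosen after their values were seen. Many genes differed between these arrays. Of 13296 genes tested, 1006 were at least 2-fold apart between tumors 1 and 2, and 2177 between tumors 1 and 3. Between tumors 2 and 3 it was 1297. Of the other T lineage markers, Lat (12.54, 11.71 and 11.71 on tumor arrays 1 to 3) and, by less, Cd3d, Cd3e and Cd3g were highest in tumor 1. Cd2 (10.96, 11.04 and 11.03) and Thy1 (12.65, 11.54 and 12.50) did not set tumor 1 apart from both other tumors. Notch1 was at 12.92, 9.0 and 10.81 on tumor arrays 1 to 3 and at 12.87 to 12.97 in non-malignant samples. Ptcra, which encodes the pre-TCR alpha chain, was at 10.30, 7.39 and 6.39 in tumors, 11.65 to 12.19 in non-malignant samples and 8.35 to 8.91 in controls. Eif4e3 stayed at 10.27 to 10.41 in non-malignant samples, where both of these genes were high, and at 10.31 to 10.61 in controls, where both were lower. In the stress response list Asns showed the same grouping in the opposite direction, with tumor 1 (5.54) among the controls (5.40 to 5.72) and tumors 2 and 3 above them (7.23 and 7.37). Eif2ak3, which encodes the eIF2alpha kinase PERK, was at 10.17 in tumor 1 and at 7.22 and 7.34 in tumors 2 and 3, against 8.79 to 9.73 in controls.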
